A study of Mus musculus with 2 samples.

Results

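Siglecs are receptors on immune cells that bind sialic acid, the sugar that caps many glycans on cell surfaces. Most carry tails that recruit the phosphatases SHP-1 (Ptpn6) and SHP-2 (Ptpn11) and so restrain activation of the cell, and a few, such as Siglec-H, signal instead through the adaptor DAP12 (Tyrobp). CD24, a short and heavily glycosylated surface protein, is one of their ligands and is known as a "don't eat me" signal on tumour cells. Described here are 8 genes, taken by symbol from the 32285 genes measured, namely Siglecf, Siglece, Siglecg, Siglech, Siglec1, Cd22 (Siglec-2), Cd33 (Siglec-3) and Cd24a, the mouse CD24 gene.

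Gene expression was measured in single cells of 2 mouse pancreatic tumours with the 10x 3' chemistry. KPC cells, a mouse pancreatic cancer line from a Pdx-1-Cre model, were grown as orthotopic allografts after lentiviral transfer of a control hairpin (KPC-shV) or of a hairpin against Zeb1 (KPC-shZEB1), with 1 mouse for each. The study's text states that the tumours used for single-cell sequencing, with either hairpin, came from mice treated with gemcitabine. The labels do not mention this treatment, and they give neither strain nor age. Mouse, tumour, library and hairpin are 1 and the same split and cannot be told apart, so no test between groups was possible. All values are given for KPC-shV first, and all intervals below are exact 95% intervals that cover counting error of UMIs (unique molecular identifiers, counted once per captured RNA molecule) only.

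After filters, 11401 cells of KPC-shV and 12130 of KPC-shZEB1 were kept, with 101067255 and 119607596 UMIs and a median of 3721 and 4260 UMIs per cell, and 46 barcodes occurred in both libraries. Cells were grouped by clusters and named "like" a cell type from marker genes, none of which was one of the 8 genes, and the names below are short for these marker-defined classes. The sizes of the classes are given as the numbers behind the values and not as a comparison. Of the markers of each class, 9 of 9 for granulocytes, 12 of 12 for monocytes and macrophages, 7 of 7 for B cells and 8 of 8 for tumour cells were detected in at least 10% of its cells, but only 2 of the 8 tumour markers, and 2 of 6 for type 2 conventional dendritic cells (cDC2), were higher in their own class than in any other. The granulocyte class held 60.2% of the KPC-shV cells and 37.7% of the KPC-shZEB1 cells, the B cell class 2.53% and 10.1%. Zeb1 itself was not lower in the tumour class of the library labelled KPC-shZEB1, at 190 counts per 1000000 UMIs (CPM) against 166 in KPC-shV, with a ratio of 1.15 (1.11 to 1.19). For that reason the second library is called the library labelled KPC-shZEB1, and every ratio below is that library over KPC-shV.

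The 8 genes lie at several separate places of the genome (mm10 or GRCm38, GENCODE annotation, all protein-coding). Siglecf (ENSMUSG00000039013, chr7:43351341-43359531, plus strand), Siglecg (ENSMUSG00000030468, chr7:43408204-43418358, plus), Cd33 (ENSMUSG00000004609, chr7:43524216-43544428, minus) and Siglece (ENSMUSG00000030474, chr7:43651070-43660161, minus) form a cluster on chromosome 7. Cd22 (ENSMUSG00000030577, chr7:30865402-30880342, minus) and Siglech (ENSMUSG00000051504, chr7:55768178-55778925, plus) lie elsewhere on that chromosome. Siglec1 (ENSMUSG00000027322, chr2:131069220-131086765, minus) is on chromosome 2 and Cd24a (ENSMUSG00000047139, chr10:43578284-43584265, plus) on chromosome 10. The Cd22 span overlaps 1 antisense gene, Gm29439, so its reads rely on the strand of the kit.

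Promoter sequences of 6 of the 8 genes were found in RefSeq (GRCm38.p6), and 4 stretches upstream of a RefSeq start site are shown because they hold motifs of myeloid and B cell factors near the start of genes that were high in those cells. Capitals mark GAGGAA, the core bound by the myeloid and B cell factor PU.1, on either strand, and in Cd22 CCCNNGGG, the palindrome bound by the B cell factor EBF1. The Siglecf, Siglece and Cd22 stretches end at the base before the start. The Siglecg stretch stops well short of it, with its matches 241 and 212 bases before the start. None of the 4 overlaps an annotated exon, although the Cd22 stretch lies inside the span of a longer transcript.

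Siglecf, chr7:43351266-43351340, plus: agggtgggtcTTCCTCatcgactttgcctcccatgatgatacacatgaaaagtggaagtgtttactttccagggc
Siglece, chr7:43660162-43660258, minus: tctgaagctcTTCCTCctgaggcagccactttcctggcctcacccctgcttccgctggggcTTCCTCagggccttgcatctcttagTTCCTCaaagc
Siglecg, chr7:43407989-43408068, plus: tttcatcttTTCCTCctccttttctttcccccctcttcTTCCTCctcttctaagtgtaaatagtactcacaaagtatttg
Cd22, chr7:30879029-30879086, minus: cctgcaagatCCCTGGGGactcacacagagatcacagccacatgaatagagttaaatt

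In the 250 bases before the start, GAGGAA occurred for Siglecf, Siglece, Siglecg and Cd33, and in 23.3% of all 32851 promoter windows. CCCNNGGG occurred for Cd22 and Siglech and in 11.8% of all windows. Of the other motifs searched, all on both strands, the longer CCCNNGGGA, which overlaps it, occurred for Cd22 (5.60% of windows), and CAGGTG, an E-box of the kind bound by ZEB1, for Cd22 and Siglech (17.2%). TTGCNNAA (9.56%) and CACGTG (6.02%) occurred for Siglech alone among the 6 genes, and a gapped interferon response motif (2.98%) for none. These matches describe letters in a window and show no binding.

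The class with the highest level of each gene was the same in both libraries. Siglecf, Siglece, Cd33 and Cd24a were highest in granulocytes, Siglec1 in monocytes and macrophages, Cd22 in B cells, and Siglecg in cDC2, among the 10 classes with at least 30 cells in each library. Siglech was under 3 CPM in every class of that size and was highest in plasmacytoid dendritic cells, a class of 15 and 40 cells that was described after its values were seen. The level in the leading class was 5.33 times that of the next class for Siglecf, 2.80 for Siglece, 3.90 for Cd33, 3.04 for Cd24a, 9.21 for Siglec1 and 10.5 for Cd22, but 1.23 for Siglecg, whose intervals in cDC2 and B cells overlapped in both libraries. The class that held most of the UMIs, which also depends on its number of cells, was not the same for 2 genes. For Siglecg it was granulocytes in KPC-shV (22.3%), just above B cells (21.7%), and B cells in the other library (35.3%). The dendritic classes together held 28.7% and 30.5% of the Siglecg UMIs. For Cd22 it was monocytes and macrophages in KPC-shV (49.1%) and B cells in the other library (41.8%).

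**Figure D1:**
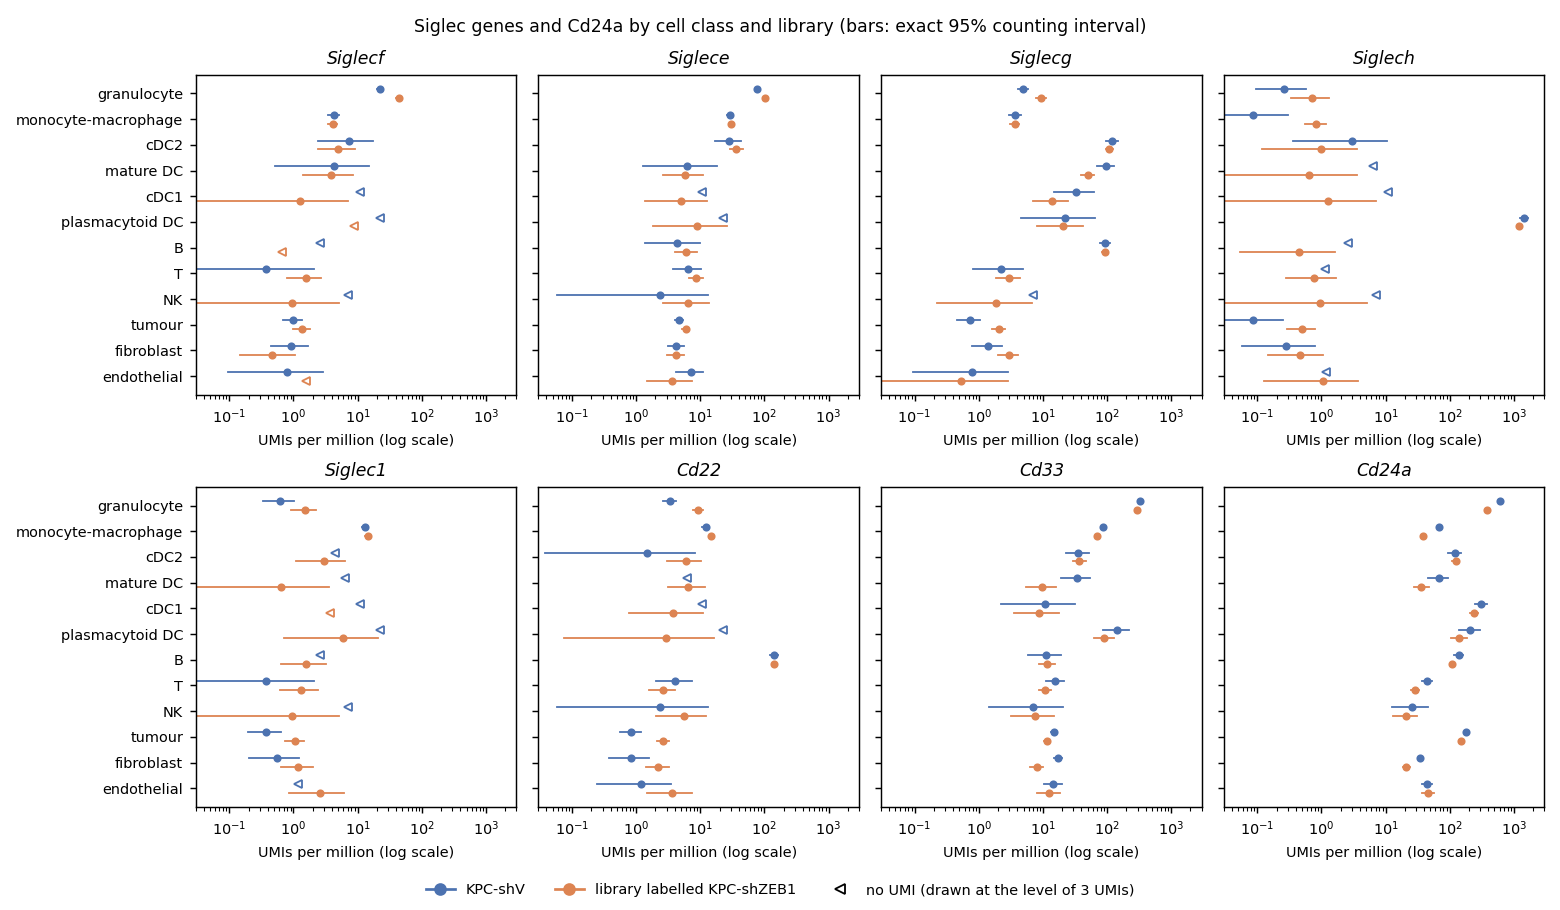
UMIs per 1000000 (log scale) of each gene in 12 cell classes, blue for KPC-shV and orange for the library labelled KPC-shZEB1, with exact 95% counting intervals and open triangles for classes without a UMI, drawn at the level of 3 UMIs. Siglech stands at 1427 and 1219 CPM in plasmacytoid dendritic cells and under 3 CPM in the other classes shown, while Cd24a is detected in all 12.

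**Figure D2:**
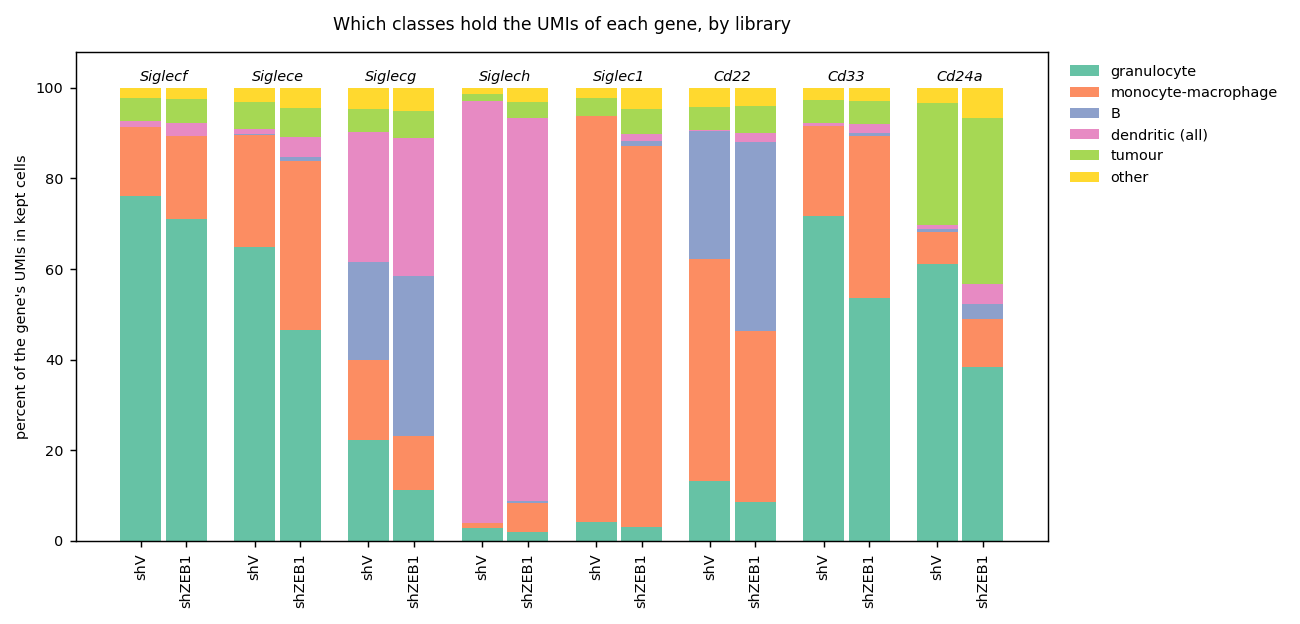
Share of the UMIs of each gene held by each class, in percent, with a pair of bars per gene for the libraries. Granulocytes hold 76.2% and 71.1% of the Siglecf UMIs. Cd22 is divided mainly among B cells and myeloid classes, with 0.173% and 1.91% in the dendritic classes, and Siglecg among B cells, myeloid and dendritic classes.

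Siglecf encodes Siglec-F, known as a marker of eosinophils and alveolar macrophages and also reported on neutrophils in tumours. In granulocytes Siglecf stood at 22.1 CPM (20.2 to 24.1) in KPC-shV and 43.7 CPM (40.3 to 47.3) in the other library, giving a ratio of 1.98 (1.76 to 2.23). The intervals did not overlap. Of the granulocytes, 5.99% and 10.8% had a Siglecf UMI, at a median depth of 3148 and 2887 UMIs, while none of 289 and 1226 B cells had one at a median of 3732 and 3418, where a count of 0 allows up to 2.59 and 0.672 CPM. Over all kept cells Siglecf was nearly level, at 6.56 and 7.23 CPM with a ratio of 1.10 (0.995 to 1.22).

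The gene was concentrated in a single granulocyte cluster, c0, whose leading genes include G0s2, Hdc, Il1b, Mmp9 and Il1r2. That cluster held 72.9% and 82.0% of the granulocyte Siglecf UMIs, and 21.5% and 51.1% of the granulocytes. Within c0, Siglecf was 73.6 CPM (66.2 to 81.5) in KPC-shV and 68.4 CPM (62.5 to 74.6) in the other library, a ratio of 0.930 (0.811 to 1.07), so the higher level of the class as a whole was not seen inside the cluster that carries most of it. In c1 the ratio was 1.04 (0.665 to 1.60). Among the clusters with few Siglecf UMIs, the ratio was 1.05 (0.442 to 2.24) in c4, from 33 and 9 UMIs, 2.26 (1.12 to 4.49) in c9, from 21 and 17 UMIs, and 4.24 (1.82 to 10.0) in c2, from 12 and 14 UMIs. With the clusters weighted alike in both libraries, the class ratio was 1.03 in place of 1.98. The cluster c17, with 5 and 247 cells, stood at 55.2 CPM in the second library, and without it the class ratio was 1.95.

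Of 6 eosinophil markers, the granule genes Epx and Prg2 were absent or nearly so in granulocytes, and the others were seen in few cells. Epx, the eosinophil peroxidase, had no UMI in any of the 6866 and 4573 granulocytes, which allows up to 0.131 and 0.213 CPM, and Prg2, the major basic protein, had 0 and 6 UMIs. Of the 411 and 493 granulocytes with a Siglecf UMI, none had a UMI of Epx, Prg2 or Alox15, and Ccr3, the eotaxin receptor, was seen in 1.22% and 2.23%, against 1.81% and 1.32% of the granulocytes without Siglecf. Il5ra, the interleukin-5 receptor, was seen in 0.730% and 2.03% of the cells with Siglecf against 0.372% and 1.37% of those without, and Ear6 in 0.243% and 0.203% against 1.18% and 0.294%. The neutrophil markers differed in direction. S100a9 was seen in 98.1% and 87.2% of the cells with Siglecf and 97.0% and 89.7% of those without, and S100a8 in 92.9% and 76.1% against 94.7% and 81.2%. Mmp9 was seen in more of the cells with Siglecf, 83.0% and 81.7% against 54.2% and 61.8%, and Retnlg in fewer, 27.0% and 12.4% against 41.3% and 24.4%. Such shares also depend on depth, which was not compared between these cells. By CPM, S100a9 was lower with Siglecf in both libraries, at 13754 and 8395 against 15392 and 9678. S100a8 was lower too, at 8438 and 4488 against 9121 and 4868. Mmp9 stayed higher, at 899 and 831 against 483 and 584 CPM, and Retnlg lower, at 421 and 162 against 795 and 428 CPM. Csf3r, G0s2 and Clec4e were also lower by CPM in both libraries. Cxcr2 and Hdc were higher with Siglecf in KPC-shV and lower in the other library. Of the 9 granulocyte markers, only Mmp9 was thus higher by CPM in both libraries.

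Siglece encodes Siglec-E, an inhibitory receptor of neutrophils, monocytes and macrophages. In granulocytes Siglece stood at 77.6 CPM (74.0 to 81.3) and 103 CPM (98.0 to 109), a ratio of 1.33 (1.24 to 1.43) whose class intervals did not overlap. The ratio was smaller inside each of the 5 large clusters, from 1.07 in c1 to 1.26 in c9, and 1.12 with the clusters weighted alike. Siglece differed more among these clusters than between the libraries, at 138 and 147 CPM in c1 against 30.8 and 37.6 CPM in c4, a cluster led by Cxcl3, S100a9 and Ccl3. In monocytes and macrophages, which held 24.7% and 37.3% of its UMIs, Siglece was 28.7 CPM (26.6 to 31.0) and 30.1 CPM (28.4 to 31.9), with overlapping intervals and a ratio of 1.05 (0.954 to 1.16).

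Cd33, whose mouse product is a myeloid receptor, had its highest level in granulocytes at 323 CPM (315 to 330) and 292 CPM (284 to 301), a ratio of 0.906 (0.872 to 0.941). In monocytes and macrophages it was 86.9 CPM (83.2 to 90.8) and 70.9 CPM (68.3 to 73.6), a ratio of 0.815 (0.770 to 0.864). The library labelled KPC-shZEB1 was lower in both classes, with intervals that did not overlap, but by less than the ratio of 0.630 (0.612 to 0.649) over all kept cells. Within the granulocytes, c1 was highest for Cd33 as it was for Siglece, at 510 and 506 CPM. Plasmacytoid dendritic cells also had Cd33, at 142 CPM (85.4 to 222) and 90.8 CPM (61.7 to 129), from 19 and 31 UMIs, with overlapping intervals.

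**Figure D3:**
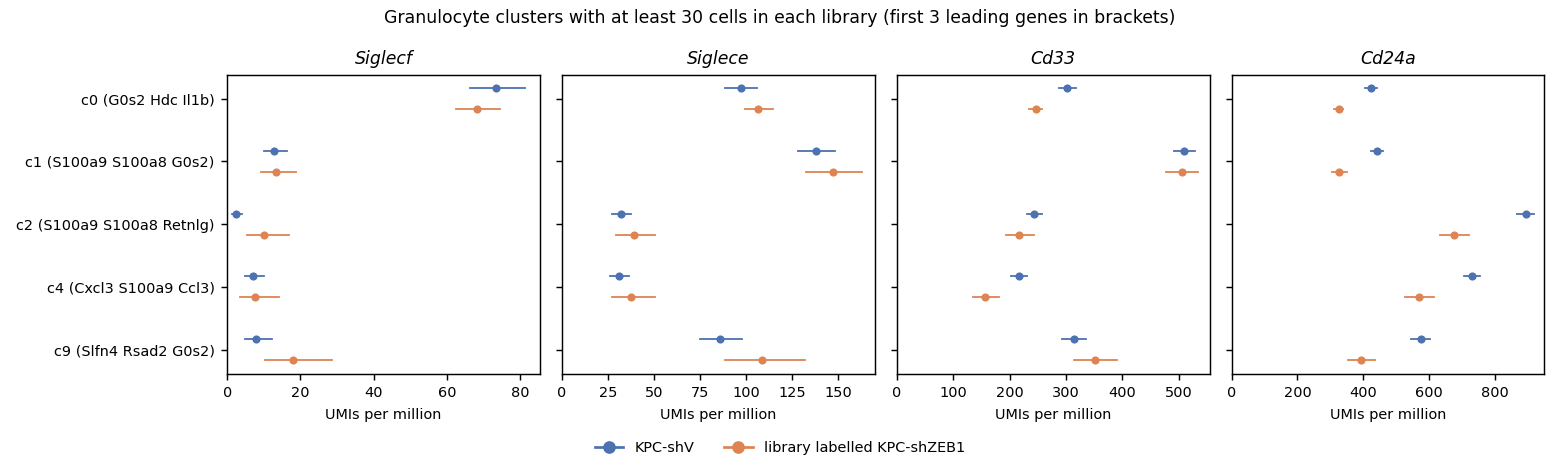
Siglecf, Siglece, Cd33 and Cd24a (UMIs per 1000000, linear axis from 0) in the 5 granulocyte clusters with at least 30 cells in each library, blue for KPC-shV and orange for the library labelled KPC-shZEB1, with exact 95% counting intervals. Siglecf is high in c0 alone (73.6 and 68.4 CPM), and Cd24a is lower in the library labelled KPC-shZEB1 in all 5 clusters.

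Among the classes with at least 30 cells in each library, Cd24a was highest in granulocytes, at 613 CPM (603 to 623) in KPC-shV and 388 CPM (378 to 399) in the other library, giving a ratio of 0.634 (0.614 to 0.654). The ratio was below 1 in each of the 5 large clusters, from 0.684 in c9 to 0.782 in c4, and 0.755 with the clusters weighted alike. The clusters themselves ran from 424 and 325 CPM in c0 to 893 and 676 CPM in c2, the cluster led by S100a9, S100a8 and Retnlg. A UMI of Cd24a was found in 72.6% and 57.4% of granulocytes, compared with 20.7% and 14.1% of T cells at a median of 5364 and 4866 UMIs.

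Outside granulocytes, Cd24a was lower in several classes with a low level but not in endothelial cells. In monocytes and macrophages it was 68.5 CPM (65.2 to 71.9) and 38.7 CPM (36.7 to 40.7), a ratio of 0.564 (0.526 to 0.606), in T cells 44.1 and 28.8 CPM (0.654, 0.521 to 0.824) and in fibroblasts 35.1 and 21.2 CPM (0.603, 0.510 to 0.712). In endothelial cells it was 44.2 and 46.4 CPM (1.05, 0.785 to 1.40). The summed level of the 9 granulocyte markers was lower in all of these classes, at 1811 and 1045 CPM in monocytes and macrophages, 1518 and 698 CPM in T cells, 1614 and 746 CPM in fibroblasts and 1755 and 657 CPM in endothelial cells, with 8, 9, 9 and 8 of 9 markers lower and none at 0. The part of free granulocyte RNA in these Cd24a values was not tested. Within granulocytes the same marker sum was 38981 and 27367 CPM, with 6 of 9 markers lower.

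In tumour cells, where CD24 acts as a ligand for inhibitory Siglecs, Cd24a was 177 CPM (173 to 182) and 152 CPM (148 to 156), a ratio of 0.858 (0.827 to 0.891), and 75.4% and 75.6% of cells had a UMI. These shares were at a median depth of 23299 and 23788 UMIs. Thinned to 1000 UMIs per cell, they were 15.1% and 13.9%, against 41.2% and 30.2% of granulocytes. The granulocyte marker sum in tumour cells was 1414 and 687 CPM, with 9 of 9 markers lower, and with the lowest class subtracted from each library as background the Cd24a ratio was 0.921. The tumour clusters differed from each other by more than the libraries did. The Epcam- and Cdh1-led cluster c12 had 253 CPM (243 to 264) and 224 CPM (215 to 233), the cluster c6, led by Cntn5 and Adgrl3, 153 CPM (148 to 158) and 146 CPM (140 to 152), and c18, led by Pcdh9 and Zfp804b, 60.6 CPM (34.6 to 98.4) and 68.6 CPM (62.8 to 74.8). A shallower cluster, c13, led by Krt18 and Wfdc2, held 21.4% and 22.7% of the tumour cells but 3.00% and 3.53% of the class's Cd24a UMIs. Its median depth was 2189 and 2263 UMIs, against 28038 and 29441 in c6. Cluster c18 came almost entirely from the library labelled KPC-shZEB1, with 234 of its 243 cells, and c27, with 24 cells, came from KPC-shV alone. Without these clusters the tumour ratio of Cd24a was 0.983, with 175 CPM in the second library. A small unnamed cluster of 36 cells led by Cp, Pkhd1 and Clu, genes of normal ducts among them, had 529 CPM (431 to 643) and 516 CPM (461 to 576), above every tumour cluster and, in the second library, above the granulocytes.

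Among lymphoid and dendritic cells, Cd24a was 140 CPM (119 to 163) and 110 CPM (100.2 to 120) in B cells, with a ratio of 0.786 (0.657 to 0.945), beside a granulocyte marker sum of 1232 and 696 CPM, with 9 of 9 lower; its part was not tested. Type 1 conventional dendritic cells (cDC1), which are known for CD24 on their surface, had 306 CPM (245 to 379) and 237 CPM (205 to 274) from 13 and 35 cells. The cDC2 stood at 120 and 124 CPM, a ratio of 1.04 (0.805 to 1.35).

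Cd22 encodes the B cell coreceptor that dampens antigen receptor signals and that binds α2,6-linked sialic acid. In B cells its level was 141 CPM (121 to 165) and 142 CPM (131 to 153), a ratio of 1.00 (0.845 to 1.20), while over all kept cells the ratio was 2.21 (2.01 to 2.44). Of the B cells, 43.9% and 38.2% had a Cd22 UMI, compared with 1.06% and 2.69% of granulocytes at a median of 3148 and 2887 UMIs. The libraries held 289 and 1226 B cells, and this number enters the ratio over all kept cells.

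Outside B cells, Cd22 was next highest in monocytes and macrophages, at 12.1 CPM (10.7 to 13.6) and 14.8 CPM (13.6 to 16.0). It was found in the clusters c3, led by Mmp12 and C1qc (15.1 and 17.4 CPM), and c7, led by F13a1, Ccl7 and Mrc1 (16.4 and 14.9 CPM), and much less in c8, led by Pid1, Chil3 and Arg1 (2.33 and 4.35 CPM). The summed level of the 7 B cell markers in the class was 35.1 and 85.6 CPM and differed 2.44-fold, and Cd22 differed 1.22-fold (1.06 to 1.42); the part of B cell RNA in this level was not tested. In granulocytes Cd22 was 3.32 and 9.23 CPM, a ratio of 2.78 (2.08 to 3.74), and in tumour cells 0.834 and 2.65 CPM (3.18, 2.08 to 5.02). The B cell markers went from 29.7 to 83.7 CPM in granulocytes and from 35.9 to 89.5 CPM in tumour cells, with all 7 past 1.5-fold in both classes and none at 0, and their part in these Cd22 ratios was not tested.

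Siglecg encodes Siglec-G, an inhibitory receptor of B cells and dendritic cells and the mouse counterpart of the human CD24 receptor Siglec-10. It was 121 CPM (96.3 to 150.4) and 109 CPM (94.9 to 124) in cDC2, a ratio of 0.899 (0.694 to 1.17), and 93.9 CPM (77.1 to 113) and 93.6 CPM (84.9 to 103) in B cells, a ratio of 0.997 (0.805 to 1.24). In B cells 29.1% and 26.4% had a Siglecg UMI, in T cells 0.988% and 1.49%. Mature dendritic cells, marked by Ccr7 and Fscn1, had 94.8 CPM (69.2 to 127) and 49.8 CPM (39.3 to 62.3), a ratio of 0.526 (0.359 to 0.777) from 45 and 77 UMIs. All 3 sub-clusters of the mature cells had a ratio below 1, 0.475, 0.408 and 0.664, the last from 4 and 22 cells with an interval of 0.267 to 1.97.

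In granulocytes Siglecg was 4.90 CPM (4.03 to 5.89) and 9.44 CPM (7.91 to 11.2), a ratio of 1.93 (1.49 to 2.50), beside the B cell markers given above. With the lowest class subtracted from each library as background, the ratio was 1.77. Tumour cells had 0.719 and 2.07 CPM. Monocytes and macrophages were level at 3.74 and 3.64 CPM.

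Siglech encodes Siglec-H, a receptor that pairs with DAP12 on plasmacytoid dendritic cells, the main producers of type I interferon. Every one of the 15 and 40 plasmacytoid cells had a Siglech UMI, at 1427 CPM (1231 to 1644) and 1219 CPM (1104 to 1341), a ratio of 0.854 (0.718 to 1.02). These cells held 92.3% and 83.5% of its UMIs. In granulocytes 0.0874% and 0.219% of cells had a UMI. Over all kept cells the ratio was 2.03 (1.73 to 2.40), and with so few cells in the class the level cannot be set more closely than the interval.

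Siglec1 encodes sialoadhesin, a large receptor of macrophages without an inhibitory tail that captures sialylated particles. It was 12.9 CPM (11.5 to 14.5) and 14.4 CPM (13.2 to 15.7) in monocytes and macrophages, a ratio of 1.11 (0.968 to 1.29) with overlapping intervals, and this class held 89.7% and 84.0% of its UMIs. A Siglec1 UMI was found in 14.4% and 16.9% of these cells, at a median of 13288 and 14549 UMIs, and in 0.204% and 0.459% of granulocytes, at 3148 and 2887. Thinned to 1000 UMIs, 1.48% and 1.40% of the monocytes and macrophages had one. Most of it came from c7, led by F13a1, Ccl7 and Mrc1, at 39.2 CPM (33.6 to 45.4) and 42.4 CPM (37.7 to 47.5). The clusters c3 and c8 had 6.47 and 7.16 CPM in KPC-shV and 7.57 and 11.3 CPM in the other library. In c8, the cluster with Ccr2 and Chil3 among its leading genes, the ratio was 1.58 (1.07 to 2.36), from 43 and 73 UMIs. Outside this class Siglec1 stayed under 6 CPM.

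**Figure D4:**
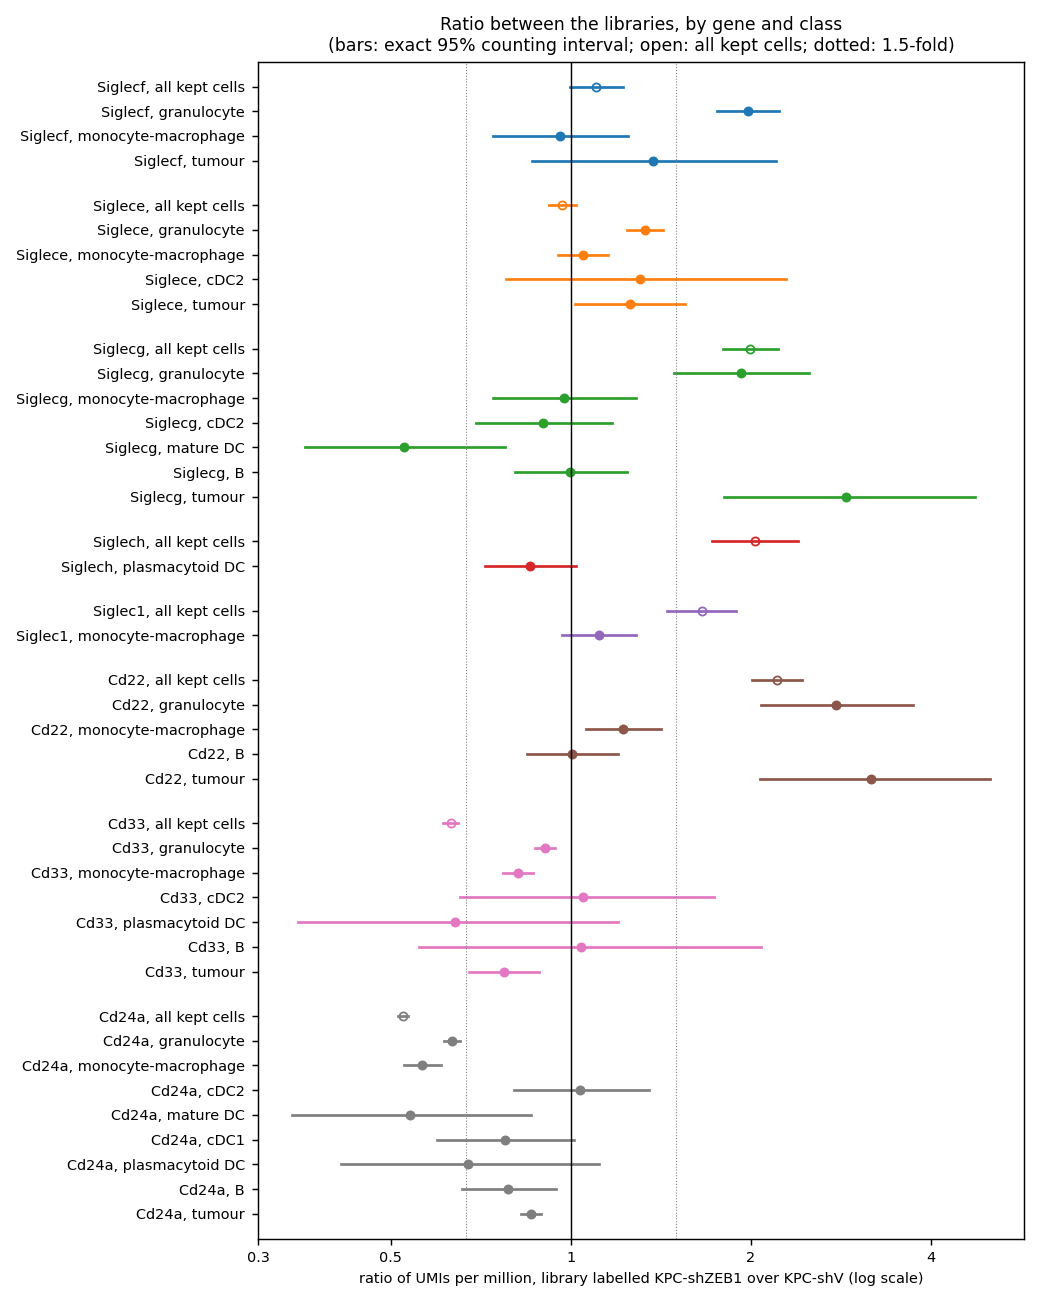
Ratio of UMIs per 1000000, library labelled KPC-shZEB1 over KPC-shV (log scale), for each gene in the myeloid, dendritic, B cell and tumour classes with at least 50 UMIs, with exact 95% counting intervals, open points for all kept cells and dotted lines at 1.5-fold. The ratios over all kept cells of Cd22, Siglech and Siglec1 lie above 1.5 while those in their leading classes lie between 0.854 and 1.11.

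The 8 genes were read against all genes with at least 50 UMIs, counting those past 1.5-fold in either direction. Over all kept cells, 4 of the 8 were past it upward (Siglecg, Siglech, Siglec1, Cd22) and 2 downward (Cd33, Cd24a), where 17.9% of all genes were past it. In granulocytes 3 of 6 with enough UMIs were past it upward (Siglecf, Siglecg, Cd22) and 1 downward (Cd24a), where 25.1% of all genes were, 2783 of them upward and 361 downward. The median log2 ratio of all these genes in granulocytes was 0.24, with 1 CPM added, and that of the 6 was 0.62. Relative to the median ratio of 1.05 among genes of at least 50 CPM, Siglecf in granulocytes was at 1.88 and Cd24a at 0.602. In monocytes and macrophages 1 of 7 was past 1.5-fold (Cd24a, downward), where 10.3% of genes were, in B cells 0 of 4, where 13.8% were, and in tumour cells 2 of 6 (Siglecg and Cd22, upward), where 14.6% were.

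Across the 25 clusters of at least 50 cells, the pattern of Siglece was most like that of Cd33 among the 8 genes (Pearson r of log2(CPM + 1) of 0.902), followed by Siglecf with Siglece (0.862), and that of Siglec1 was most unlike Cd24a (-0.349). Among all other genes, the closest to Siglecf were 1110002J07Rik (0.883), D7Ertd128e (0.882) and Il1r2 (0.874), a decoy receptor for interleukin-1. Siglece was closest to Sirpb1b (0.954), Cass4 and Ppp1r3d, Cd33 to Rab20 (0.971), Dmxl2 and Igsf6, and Cd24a to Ankrd22 (0.893), Egln3 and Chil1. Cd22 was closest to Cd79b (0.869), a subunit of the B cell antigen receptor, Gm31243 and Txndc16, and Siglecg to Gm16094 (0.882), Napsa and Pkib. Siglech was closest to Cox6a2 (0.944), a marker used here for plasmacytoid cells, Grm8 and Gm13919, and Siglec1 to Gm826 (0.888), Serpinb8 and Mrc1, the mannose receptor of macrophages. The clusters share libraries and depth, so these values describe likeness only.

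The partners that Siglecs signal through were measured in every main class. Of 7 such genes, 1 was past 1.5-fold in granulocytes, where 25.1% of all genes were. It was Inpp5d, the inositol phosphatase SHIP1, at 395 and 598 CPM (1.51, 1.47 to 1.56). None of 7 was past 1.5-fold in monocytes and macrophages or in B cells, where 10.3% and 13.8% of all genes were. In tumour cells, where 14.6% of all genes were past it, Inpp5d (1.69) and Lyn (1.69), a kinase of blood cells, were as well. Inpp5d stood at 28.1 and 47.4 and Lyn at 67.8 and 114 CPM, beside Ptprc, the leukocyte gene CD45, at 48.6 and 79.7 CPM (1.64). These levels are low beside the 1313 CPM of Inpp5d and 2218 CPM of Lyn in B cells. Ptpn6, which encodes SHP-1, was 135 CPM in granulocytes, 117 in monocytes and macrophages, 150 in B cells and 13.9 in tumour cells with the libraries pooled. Tyrobp, the adaptor DAP12, was highest in granulocytes (2316 CPM) among the classes with at least 30 cells in each library, which leave out plasmacytoid dendritic cells.

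Genes that make Siglec ligands had their highest levels in different classes, among those with at least 30 cells in each library. St6gal1, which makes the α2,6-linked sialic acid that Cd22 binds, and Cmah, which makes the Neu5Gc form that mouse Cd22 prefers, were both highest in B cells, at 284 and 299 CPM. St3gal1 was highest in granulocytes (397 CPM), St3gal6 in tumour cells (198 CPM), and St3gal3 and St8sia4, the latter a polysialyltransferase, in mature dendritic cells (529 and 1173 CPM). Of 20 sialyltransferases, 3 of 11 with enough UMIs were past 1.5-fold in granulocytes, all upward, namely St6galnac3 (3.18), St3gal3 (2.51) and St3gal5 (1.98), beside 25.1% of all genes, most of those upward too, and the median log2 ratio of the 11 was 0.13, against 0.24 for all genes. In monocytes and macrophages 2 of 13 were (St6galnac3, 2.48, and St8sia1, 2.49), beside 10.3% of all genes, and in tumour cells 3 of 13 (St6galnac3, 2.87, St8sia1, 2.85, and St8sia4, 2.01), beside 14.6%. St6galnac3 and St8sia1 were highest in T cells, at 1112 and 56.2 CPM, a class of 405 and 1273 cells, and the part of free RNA in their low levels elsewhere was not tested. In B cells St3gal5 was 1.76-fold higher and St3gal4 had a ratio of 0.613, of 12 genes, beside 13.8% of all genes past 1.5-fold. The St3gal4 interval of 0.378 to 1.02 held 1.

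Among genes for the synthesis of sialic acid, Slc35a1, its Golgi transporter, was past 1.5-fold in granulocytes (1.84, 1 of 5), Nans in B cells (2.34, 1.07 to 6.05, 1 of 5) and Cmah in tumour cells (1.62, 1 of 6). None of 6 was in monocytes and macrophages. Of all genes, 25.1% were past 1.5-fold in granulocytes, 13.8% in B cells, 14.6% in tumour cells and 10.3% in monocytes and macrophages. The sialidase Neu1 was at 0.854 in granulocytes, 0.822 in monocytes and macrophages and 0.962 in B cells, and none of the sialidases was past 1.5-fold in the 4 classes. Of the sialylated carrier proteins, 2 of 4 with enough UMIs were past it in granulocytes, Spn (1.60) and Muc1 (1.74), both upward. In tumour cells 1 of 5 was past it upward, Ptprc at the ratio given above, and 1 downward, Muc16 (0.346, from 44 and 15 UMIs). None of the 5 other genes that restrain phagocytosis, among them Cd47 and its receptor Sirpa, was past it in any of the 4 classes. Of the other Siglec genes, Mag was at 1.45 (1.17 to 1.81) in monocytes and macrophages, and Siglec15 had 37 and 24 UMIs in tumour cells (0.658, 0.377 to 1.13).

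Of the B cell receptor and coreceptor genes, 0 of 7 in B cells were past 1.5-fold, with Cd79b at 0.813, while 4 of 6 were past it upward in granulocytes (Cd79a 4.14, Cd79b 4.87, Cd72 2.28, Cd5 2.62), 4 of 8 in monocytes and macrophages (among them Cd79a 4.10, Cr2 4.63 and Cd5 3.29) and 4 of 7 in tumour cells (Cd79a 2.82, Cd79b 2.47, Cr2 3.04, Cd5 2.47). Of all genes, 13.8% were past 1.5-fold in B cells, 25.1% in granulocytes, 10.3% in monocytes and macrophages and 14.6% in tumour cells. Type I interferon response genes are a group that Siglec1 is known to follow in macrophages. In monocytes and macrophages 0 of 9 were past 1.5-fold, with a median log2 ratio of 0.23 against 0.04 for all genes. In granulocytes Rsad2 (0.655) and Usp18 (0.648) were lower and Ifi44 (1.84) higher, of 9, in tumour cells Ifit1 (0.574), Ifit3 (0.446) and Rsad2 (0.575) were lower, of 9, and in B cells Isg15 (1.68) and Oasl1 (2.27) were higher, of 4. The median log2 ratio of the measured interferon genes was -0.03 in granulocytes, against 0.24 for all genes. It was -0.45 against 0.03 in tumour cells and 0.57 against 0.04 in B cells.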

How the data were processed

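The deposited values are raw UMI counts, produced by the authors through Cell Ranger 7.0.1 on mm10 and not yet passed through their cell filters; whether intron reads were counted is not given in the sources used here. By the study's limits, barcodes under 500 genes, outside 1000 to 60000 UMIs or over 15% mitochondrial UMIs were dropped, and 312 and 317 doublets were removed at a Scrublet score over 0.2, in place of the study's DoubletFinder. Counts were clustered with scanpy 1.11.5 and leidenalg 0.10.2 (3000 variable genes without the 8 genes, 30 components, 20 neighbours, Leiden resolution 1), both libraries together and without the Harmony correction of the study. Clusters were named from 21 marker lists by a scoring rule set after the clusters were seen; 4 duct genes, added then, kept 1 cluster unnamed. Sub-clusters were made of dendritic, T and NK cells.

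UMIs were summed per class and library, as counts per 1000000 (CPM), with exact Poisson intervals, Clopper-Pearson limits for shares, and for ratios the exact interval conditional on the sum of both counts (scipy 1.17.1); these cover counting error only, and a count of 0 was read as up to 3 UMIs. No test was run, since each group had 1 library. The ratio step was tested on simulated data. Named were all 8 genes; of 10 gene lists, genes with at least 50 UMIs that were past 1.5-fold or had the extreme ratios of a list; and the 3 genes most like each of the 8 across clusters, with at least 200 UMIs. The genes, lists and rules were chosen with earlier results of these data known. Some alleles of the cell line and values of 1 listed gene are not reported here.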

Additional observations from a re-analysis of the deposited data

Results flagged for a closer look

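Siglecg had ratios on opposite sides of 1 in different classes, with intervals that did not hold 1. It was 1.93 in granulocytes and 2.88 in tumour cells, but 0.526 in mature dendritic cells. With 1 library per group the difference between these classes was not tested. The levels behind the higher ratios were 9.44 CPM or less, while mature dendritic cells had 94.8 and 49.8 CPM, from 45 and 77 UMIs. The 7 B cell markers were past 1.5-fold in granulocytes and in tumour cells, and their part in these ratios was not tested.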

How the results depend on the processing

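No paired analysis was possible because each group had 1 library and no test was run. Of 81 alternative values for the ratios in the leading classes, 73 stayed inside the main 95% interval and none crossed 1 where that interval lay on 1 side of it; of 61 for other classes, 55 did. With the clusters of granulocytes weighted alike in both libraries, an alternative chosen after seeing the data, the ratio was 1.03 for Siglecf, 1.12 for Siglece and 0.755 for Cd24a. Relative to the median ratio of genes of at least 50 CPM, it was 0.861 for Cd33 and 0.602 for Cd24a. With the mean over cells of each cell's CPM, Siglec1 in monocytes and macrophages was at 0.967. Siglech in plasmacytoid cells was 0.584 with the top 8% of doublet scores removed, which left 6 and 38 cells, and 1.02 with each library clustered alone. Cd24a in tumour cells ran from 0.736 with at least 200 genes and 500 UMIs, and 0.771 with no upper limit on UMIs, to 0.983 without the clusters from 1 library, which was added for ratios after seeing the data. Thinned to 1000 UMIs per cell, the share with a UMI was 2.01% and 3.85% (KPC-shV, then the library labelled KPC-shZEB1) for Siglecf in granulocytes, 6.31% and 9.18% for Siglece, 25.6% and 22.9% for Cd33, 41.2% and 30.2% for Cd24a, 9.09% and 11.5% for Siglecg in cDC2, 73.3% and 75.0% for Siglech in plasmacytoid cells, 1.48% and 1.40% for Siglec1 in monocytes and macrophages, and 15.6% and 12.5% for Cd22 in B cells. The cause of these moves was not tested. No alternative stands in for a replicate. Depth limits the classes with few cells, such as the 15 and 40 plasmacytoid cells behind Siglech.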

Other observations

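A small dendritic cluster that no marker list named, with 2 and 32 cells, had Siglece at 106 CPM (78.8 to 140.0), Siglecg at 99.8 CPM (73.4 to 133) and Cd24a at 181 CPM (144 to 223) in the library labelled KPC-shZEB1, from 50, 47 and 85 UMIs. Its 2 cells in KPC-shV held 6, 5 and 7 UMIs of these genes. The 289 and 217 barcodes left out for more than 60000 UMIs had Cd24a at 170 CPM (165 to 175) and 159 CPM (153 to 164). The barcodes removed as doublets had it at 242 CPM (226 to 259) and 124 CPM (113 to 135).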
